A study of Mus musculus with 6 samples.

Results

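The genes of cholesterol, fatty acid and glycerolipid synthesis were compared between hearts of GRK2+/- mice and hearts of wild-type (WT) littermates, both at 9 months of age. The set holds 32 genes named by symbol, all of them measured, among 18193 genes in the array table. Where a gene had several probe sets annotated to it alone, the brightest on average was taken. GRK2+/- mice carry 1 targeted allele of the receptor kinase gene (B6.129-Adrbk1tm1Mca/J, backcrossed onto C57BL/6J) and 1 normal allele, and the WT mice are C57BL/6J. GRK2 is the kinase that phosphorylates activated G protein-coupled receptors and turns their signal down. Each group held 3 hearts with 1 expression array per heart, and the RNA came from the upper part of the heart, excised after arrest with potassium chloride. The labels restrict the allele to no cell type, and they give neither sex nor litter for single animals. They say that the hearts are separate samples, so p-values measure the spread between these hearts.

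Sterol synthesis starts from acetyl-CoA, passes through mevalonate and squalene, and ends in cholesterol, while fatty acid synthesis turns citrate-derived acetyl-CoA into palmitate, which is then elongated, desaturated and built into triglyceride. SREBP-2, the product of Srebf2, mainly drives the sterol genes, and SREBP-1, the product of Srebf1, mainly drives the fatty acid genes. Both are held in the endoplasmic reticulum by INSIG proteins when sterols are plentiful and are cut free when sterols run low. The heart takes up most of its fatty acids from blood, and these synthesis genes are best known from liver and fat tissue.

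The 6 arrays had similar medians (6.25 to 6.31, log2). Arrays of the same genotype correlated at 0.996 to 0.997 over probe sets and arrays of different genotype at 0.994 to 0.997, so no array stood apart. Control probe sets for beta-actin, which report on RNA integrity and labelling, had a 3′ minus 5′ difference of 0.98 ± 0.08 in GRK2+/- hearts and 0.78 ± 0.04 in WT hearts (SD, n = 3 each). The same measure was 0.03 ± 0.02 in GRK2+/- and 0.01 ± 0.04 in WT hearts for Gapdh, and 1.77 ± 0.07 in GRK2+/- and 1.75 ± 0.05 in WT hearts for pyruvate carboxylase. Its mean differed in the opposite direction to beta-actin, with overlap, for the transferrin receptor (1.23 ± 0.02 in GRK2+/- and 1.33 ± 0.12 in WT hearts) and for 18S rRNA (-0.26 ± 0.27 in GRK2+/- and 0.01 ± 0.12 in WT hearts). Its part in the results below was not tested. The hearts are bulk tissue, so fewer cells of a type and less RNA per cell cannot be told apart.

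Differences are GRK2+/- minus WT on the log2 scale with limma's standard error (SE, n = 3 hearts per group), and a gene counts as called when limma's p, adjusted by the method of Benjamini and Hochberg over all 18193 genes, is under 0.05. By that rule 0 of the 32 members were called, against 0% of all genes. The smallest adjusted p among the members was 0.114, for Thrsp. An exact permutation test of 3 hearts against 3 cannot give a two-sided p below 0.1. The members are therefore described by limma's unadjusted p and by whether the groups overlap. At an unadjusted p under 0.05 there were 8 of 32 members (25%), against 14.0% of all genes. On the higher side were 6 members, where all genes had 6.30%, and on the lower side 2, where all genes had 7.70%. The groups did not overlap for 6 members (18.8%, against 19.1% of all genes), 5 of them higher in GRK2+/- hearts, where all genes had 7.44%, and 1 lower, where all genes had 11.6%. The share without overlap in either direction was thus at the background. The median difference was 0.070 over the members and -0.019 over all genes, with 23 members above 0 and 9 below.

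**Figure D1:**
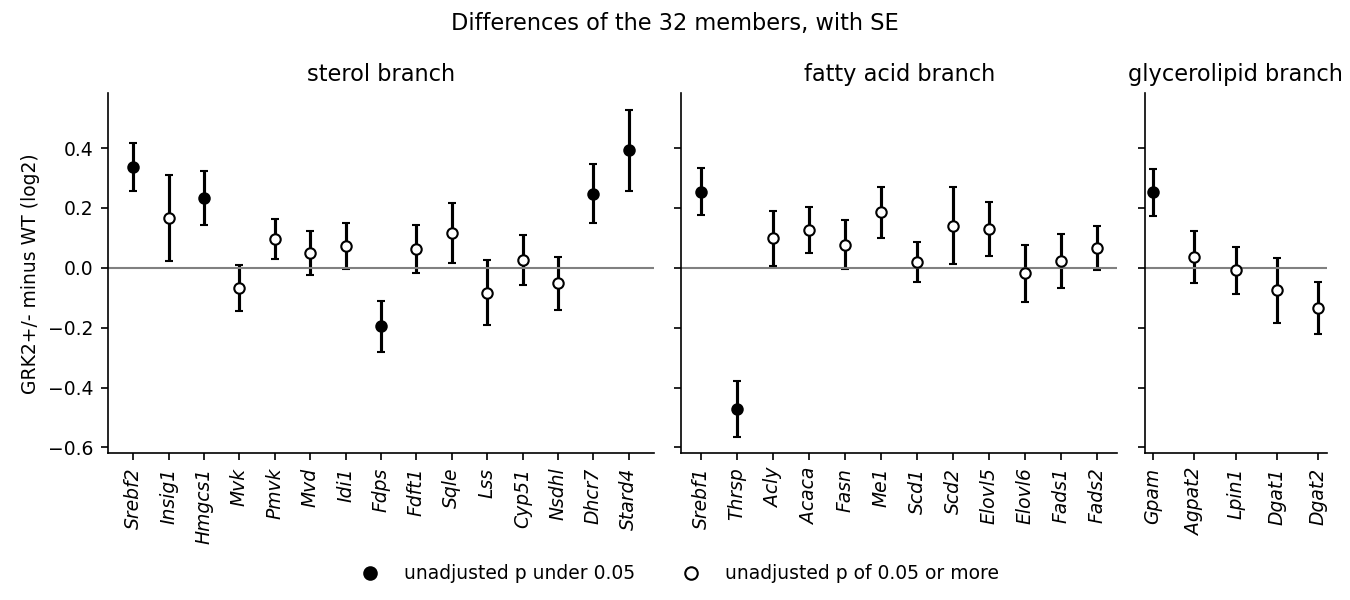
Difference between GRK2+/- and WT hearts (vertical axis, log2, with SE) for each of the 32 genes, in pathway order within each branch, with filled points at an unadjusted p under 0.05. The 6 filled points above 0 are Srebf2, Srebf1, Hmgcs1, Dhcr7, Stard4 and Gpam, and the 2 below 0 are Fdps and Thrsp.

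SREBPs act through short sterol regulatory elements near start sites, usually beside sites for NF-Y and Sp1. Shown are the windows of the 3 members that hold the core letters of that element (Srebf2, Hmgcs1 and Gpam), and that of Thrsp, the member with the smallest p, which does not hold them. Sequences are from RefSeq (GRCm38.p6), each 300 bases from 250 before to 50 after the annotated start, on the strand of the gene. Srebf2 lies at chr15:82147019-82147318 (+), Hmgcs1 at chr13:119690101-119690400 (+), the upstream start of Gpam at chr19:55127189-55127488 (-) and Thrsp at chr7:97417501-97417800 (-). Capitals mark TCACNCCA, the core of the sterol regulatory element, CCAAT, the NF-Y box, and GGGCGG, the Sp1 box, searched on both strands together with the E-box CACGTG.
Srebf2: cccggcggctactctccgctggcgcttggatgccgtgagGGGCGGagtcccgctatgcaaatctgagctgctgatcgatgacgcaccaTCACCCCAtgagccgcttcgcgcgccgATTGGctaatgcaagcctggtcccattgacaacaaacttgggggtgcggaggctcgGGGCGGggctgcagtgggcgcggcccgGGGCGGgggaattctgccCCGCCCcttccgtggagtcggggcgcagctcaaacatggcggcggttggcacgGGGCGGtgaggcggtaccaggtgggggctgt
Hmgcs1: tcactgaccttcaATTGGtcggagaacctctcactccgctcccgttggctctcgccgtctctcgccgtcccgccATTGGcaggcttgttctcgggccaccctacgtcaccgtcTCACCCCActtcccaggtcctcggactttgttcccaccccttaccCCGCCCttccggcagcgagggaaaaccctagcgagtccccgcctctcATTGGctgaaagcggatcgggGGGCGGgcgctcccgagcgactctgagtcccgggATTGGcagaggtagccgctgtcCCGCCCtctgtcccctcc
Gpam: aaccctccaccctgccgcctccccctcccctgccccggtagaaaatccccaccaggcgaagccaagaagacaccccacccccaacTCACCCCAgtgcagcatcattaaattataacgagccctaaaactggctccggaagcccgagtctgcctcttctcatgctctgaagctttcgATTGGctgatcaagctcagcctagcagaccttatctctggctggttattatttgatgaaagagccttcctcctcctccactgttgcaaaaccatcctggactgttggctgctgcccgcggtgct
Thrsp: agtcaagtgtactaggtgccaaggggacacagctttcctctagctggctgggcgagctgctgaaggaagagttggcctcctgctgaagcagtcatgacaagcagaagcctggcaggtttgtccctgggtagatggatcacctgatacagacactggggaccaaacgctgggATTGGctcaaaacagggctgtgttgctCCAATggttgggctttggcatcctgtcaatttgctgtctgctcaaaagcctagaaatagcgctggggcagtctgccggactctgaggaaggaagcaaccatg

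The sterol element core was found in 3 of the 23 members with a start site in the table (Srebf2, Hmgcs1 and Gpam), beginning at -162, -137 and -165 bases from the start, each time as TCACCCCA, and in 4.97% of all 27025 genes. All 3 are among the 6 members higher at an unadjusted p under 0.05. Of the others, Srebf1 and Dhcr7 have 3 start sites each in the table, and none of those windows holds the core. Stard4 has no start site there and was not searched, and the same holds for Fdps on the lower side. Its letters were chosen with these windows in view, so this is a description only. The NF-Y box was found in 18 of 23 members, Thrsp included, against 41.1% of all genes, and the Sp1 box in 16 of 23, against 38.2%. The E-box was found in 3 of 23, against 8.09%. The letters of the NF-Y and Sp1 boxes do not overlap the sterol element core in the windows shown. Binding was not measured, and a gene with several starts counts once if any of them holds the letters.

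Of the 4 regulators, 3 (75%, against 14.0% of all genes) had an unadjusted p under 0.05. Srebf2 and Srebf1 were higher and Thrsp lower in GRK2+/- hearts. The groups overlapped only for Insig1, and over all genes they did not overlap for 19.1%. Srebf2, which encodes the transcription factor of the sterol branch, had levels of 8.003, 7.76 and 7.88 in GRK2+/- hearts 1 to 3, against 7.57, 7.59 and 7.48 in WT hearts. All GRK2+/- values lay above all WT values, and the closest pair was 0.18 apart. The difference was 0.34 ± 0.08, or 1.26-fold (limma adjusted p = 0.152), and its sign and unadjusted call held in all 15 alternatives run, from 0.28 to 0.40. A dimmer probe set of Srebf2 gave 6.44, 6.26 and 6.26 in GRK2+/- hearts, against 5.98, 5.95 and 5.95 in WT hearts. It differed by 0.36 ± 0.07, again without overlap, so both probe sets of the gene showed the same difference.

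Srebf1, which encodes the transcription factor of the fatty acid branch, had levels of 8.63, 8.72 and 8.79 in GRK2+/- hearts, against 8.54, 8.49 and 8.35 in WT hearts. The groups did not overlap, although GRK2+/- heart 1 lay only 0.10 above WT heart 1. The difference was 0.25 ± 0.08, or 1.19-fold (limma adjusted p = 0.227), and it kept its sign and its unadjusted call in all 15 alternatives, from 0.20 to 0.29. The array holds 1 singly annotated probe set for Srebf1, so it cannot separate the SREBP-1a and SREBP-1c transcripts, which arise from different starts.

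Thrsp, a small nuclear protein that promotes lipogenesis and is induced by thyroid hormone and carbohydrate in liver, went the other way. Its levels were 9.85, 10.13 and 10.06 in GRK2+/- hearts, against 10.37, 10.61 and 10.48 in WT hearts. Every GRK2+/- heart was below every WT heart, by 0.24 at the closest. The difference was -0.47 ± 0.09, or 0.721-fold (limma adjusted p = 0.114), and Thrsp ranked 75th of all genes by p. A second bright probe set gave 8.66, 8.71 and 8.76 in GRK2+/- hearts, against 8.99, 9.28 and 9.12 in WT hearts, a difference of -0.42 ± 0.08. The dimmest of the 3 probe sets differed by -0.15 ± 0.08, in the same direction. Over the 15 alternatives Thrsp ranged from -0.53 to -0.35 and kept its unadjusted call in each.

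Insig1, which encodes the protein that retains the SREBPs and is itself an SREBP target, was split within the GRK2+/- group. Its levels were 6.98, 7.54 and 7.52 in GRK2+/- hearts, against 7.02, 7.28 and 7.25 in WT hearts. GRK2+/- heart 1 was the lowest of all 6 hearts, while GRK2+/- hearts 2 and 3 were the highest. The difference of 0.17 ± 0.14 had an adjusted p of 0.625 by limma. It was 0.35 without GRK2+/- heart 1, 0.07 without GRK2+/- heart 2, 0.08 without GRK2+/- heart 3 and 0.08 without WT heart 1.

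**Figure D2:**
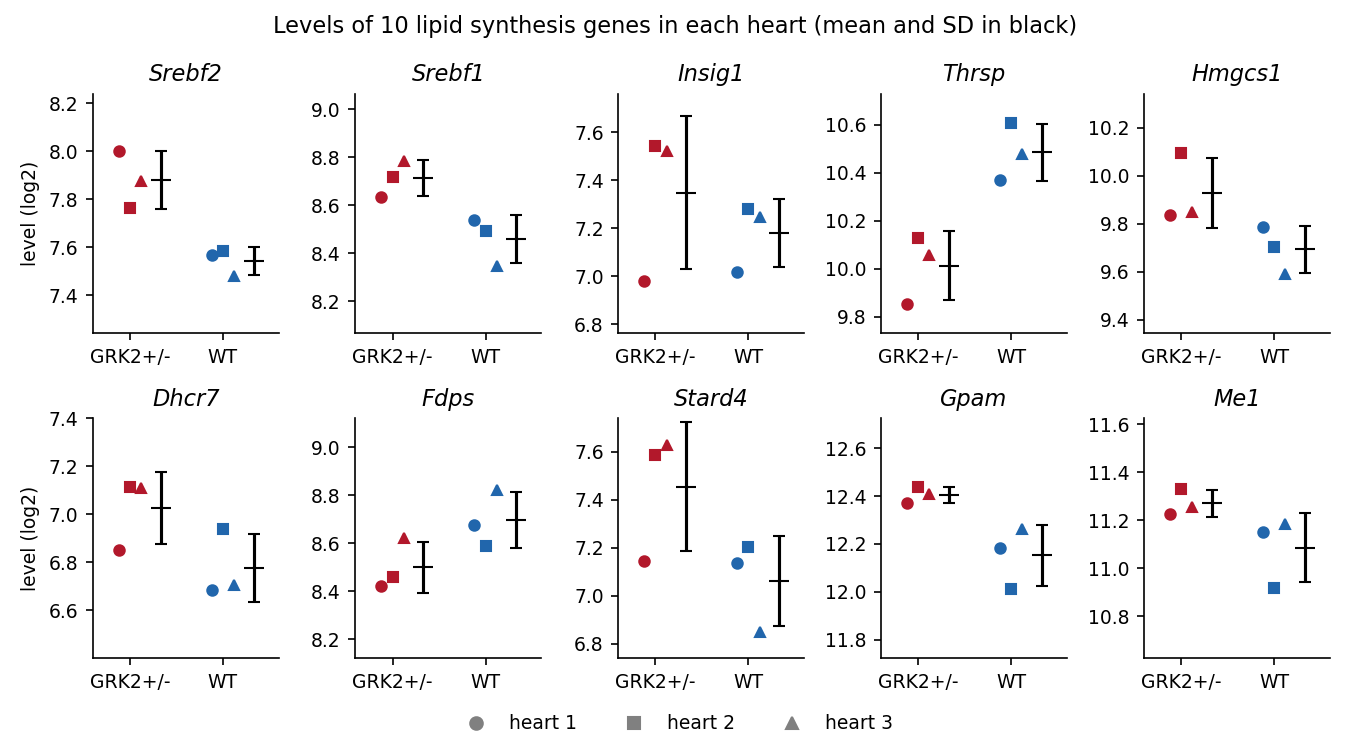
Level of 10 genes (vertical axis, log2, each panel spanning 1 unit) in each GRK2+/- heart (left, red) and WT heart (right, blue), with the group mean and SD in black. Srebf2, Srebf1, Hmgcs1, Gpam and Me1 lie wholly above WT and Thrsp wholly below it, whereas Insig1, Dhcr7, Fdps and Stard4 overlap.

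In the sterol branch, 5 of 15 members (33.3%, against 14.0% of all genes) had an unadjusted p under 0.05, 4 higher and 1 lower. Besides Srebf2 they were Hmgcs1, Dhcr7, Stard4 and Fdps. The branch median was 0.072. Hmgcs1, the synthase that makes HMG-CoA at the entry of the mevalonate pathway, had levels of 9.84, 10.10 and 9.85 in GRK2+/- hearts, against 9.79, 9.70 and 9.59 in WT hearts. The groups were separated by 0.05, with GRK2+/- heart 2 the highest of the 6. The difference was 0.23 ± 0.09, or 1.18-fold (limma adjusted p = 0.305), and all 5 of its probe sets were above 0, from 0.07 to 0.23. Without GRK2+/- heart 2 it was 0.15, and the unadjusted call was also lost without WT heart 2 (0.24) and without WT heart 3 (0.18).

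Dhcr7, the reductase of the last step to cholesterol, had levels of 6.85, 7.11 and 7.11 in GRK2+/- hearts, against 6.69, 6.94 and 6.71 in WT hearts. The groups overlapped, since GRK2+/- heart 1 lay below WT heart 2. The difference was 0.25 ± 0.10, or 1.19-fold (limma adjusted p = 0.314). It was 0.20 to 0.21 without GRK2+/- heart 2, GRK2+/- heart 3, WT heart 1 or WT heart 3, each of which took the unadjusted p above 0.05. Its level was under the middle of the gene table (a median of 7.24), where probe sets carry less signal over background.

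Stard4, a soluble carrier that moves cholesterol between membranes and an SREBP-2 target, had levels of 7.15, 7.59 and 7.63 in GRK2+/- hearts, against 7.13, 7.20 and 6.85 in WT hearts. GRK2+/- heart 1 lay among the WT hearts and the other two GRK2+/- hearts were above all of them. The difference of 0.39 ± 0.14, or 1.31-fold, was the highest of the 32 (limma adjusted p = 0.263). Its other probe sets differed by 0.45 ± 0.10 and 0.39 ± 0.14, both without overlap between the groups. The unadjusted call was lost without GRK2+/- heart 2 (0.33), GRK2+/- heart 3 (0.30) or WT heart 3 (0.29).

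Fdps, the farnesyl diphosphate synthase in the middle of the pathway, differed in the opposite direction. Its levels were 8.42, 8.46 and 8.62 in GRK2+/- hearts, against 8.68, 8.59 and 8.82 in WT hearts. The groups overlapped through GRK2+/- heart 3 and WT heart 2. The difference was -0.20 ± 0.09, or 0.873-fold (limma adjusted p = 0.348). A dim probe set gave -0.22 ± 0.07 without overlap. The unadjusted call ended when arrays were centred on their medians (-0.17), with array weights (-0.19), with each gene's most variable probe set (-0.20) and without any of 4 hearts, with a value of -0.13 when WT heart 3 was left out.

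The other enzymes of the sterol branch had no unadjusted p under 0.05. These were the mevalonate kinase Mvk (-0.07 ± 0.08), the phosphomevalonate kinase Pmvk (0.10 ± 0.07), the decarboxylase Mvd (0.05 ± 0.07), the isomerase Idi1 (0.07 ± 0.08), the squalene synthase Fdft1 (0.06 ± 0.08), the squalene epoxidase Sqle (0.12 ± 0.10), the lanosterol synthase Lss (-0.08 ± 0.11), the demethylase Cyp51 (0.03 ± 0.08) and the dehydrogenase Nsdhl (-0.05 ± 0.09). Their unadjusted p ran from 0.187 for Pmvk to 0.769 for Cyp51. In pathway order, the values above 0.2 thus lay at the entry enzyme Hmgcs1 and the final enzyme Dhcr7, and the enzymes between them lay from -0.20 to 0.12. Sqle, at 4.84 ± 0.09 in GRK2+/- and 4.72 ± 0.19 in WT hearts (SD, n = 3 each), lay at percentile 9.42 of all genes by level, where there is little signal over background.

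In the fatty acid branch the regulators Srebf1 and Thrsp were the 2 of 12 members with an unadjusted p under 0.05. That share, 16.7%, was close to the 14.0% of all genes, and none of the 10 enzymes had such a p. The branch median was 0.088, with 10 members above 0 and 2 below. Me1, the malic enzyme that supplies NADPH for lipogenesis, had levels of 11.23, 11.33 and 11.26 in GRK2+/- hearts, against 11.15, 10.92 and 11.19 in WT hearts. The groups did not overlap, by a margin of 0.04, and the difference was 0.19 ± 0.08 (limma adjusted p = 0.365). It was 0.10 without WT heart 2 and 0.12 with the mean of its 2 probe sets, and it had an unadjusted p under 0.05 after centring (0.21), after quantile normalisation (0.18), with a variance prior that depends on level (0.19) and without WT heart 3 (0.24).

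By their brightest probe sets, the enzymes that commit carbon to fatty acids showed small differences of the same sign. Acly, which makes cytosolic acetyl-CoA from citrate, differed by 0.10 ± 0.09, the acetyl-CoA carboxylase Acaca by 0.13 ± 0.08 and the fatty acid synthase Fasn by 0.08 ± 0.08. For none of these was the unadjusted p under 0.05. The elongase Elovl5 differed by 0.13 ± 0.09 and Elovl6 by -0.02 ± 0.09. The delta-9 desaturases Scd1 and Scd2 differed by 0.02 ± 0.07 and 0.14 ± 0.13, and the polyunsaturated fatty acid desaturases Fads1 and Fads2 by 0.02 ± 0.09 and 0.07 ± 0.07. Dimmer probe sets gave -0.08 ± 0.08 for Acaca, and -0.06 ± 0.08 and -0.14 ± 0.10 for Scd2. Scd1 and Scd2 are close paralogs, and cross-hybridisation between them was not tested. The sign of Elovl6 turned after centring and after quantile normalisation.

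In the glycerolipid branch Gpam was the 1 of 5 members with an unadjusted p under 0.05 (20%, against 14.0% of all genes). Gpam, the mitochondrial acyltransferase that starts triglyceride and phospholipid synthesis, had levels of 12.37, 12.44 and 12.41 in GRK2+/- hearts, against 12.18, 12.01 and 12.26 in WT hearts. The GRK2+/- hearts lay within 0.07 of each other and all above the WT hearts. The difference was 0.25 ± 0.08, or 1.19-fold (limma adjusted p = 0.235). Its other probe set, at 8.11, 8.42 and 8.11 in GRK2+/- hearts, against 8.07, 7.99 and 8.44 in WT hearts, differed by only 0.05 ± 0.13. The result for Gpam therefore rests on its brighter probe set, and the unadjusted call was lost with the mean of both (0.15) and with the most variable one (0.05).

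The later enzymes of triglyceride synthesis lay near or below 0. The acyltransferase Agpat2 differed by 0.04 ± 0.09, the phosphatidate phosphatase Lpin1 by -0.01 ± 0.08, and the diacylglycerol acyltransferases Dgat1 and Dgat2, which make triglyceride, by -0.08 ± 0.11 and -0.13 ± 0.09. The second probe set of Dgat2 differed by -0.25 ± 0.12. The branch median was -0.0082, and the sign of Lpin1 turned after centring.

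Of the 24 members with more than 1 probe set, 14 had all of them on the same side of 0 and 10 did not. The 6 members with an unadjusted p under 0.05 and more than 1 probe set (Srebf2, Stard4, Hmgcs1, Thrsp, Fdps and Gpam) were all among the 14. Srebf1 and Dhcr7 have 1 probe set each. Over all 72 probe sets of the members, 18 (25%) had an unadjusted p under 0.05, 14 higher and 4 lower, against 12.8% of all 45037 probe sets tested. Probe sets of 1 gene share its RNA and are not independent.

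Some probe sets that the choice of the brightest left aside differed more than the one used. An Acly probe set gave 8.67, 8.75 and 8.50 in GRK2+/- hearts, against 8.49, 8.23 and 8.12 in WT hearts, without overlap and by 0.36 ± 0.10. Its name ends in _x_at, the array's mark for probes that may bind other transcripts, and the brighter Acly probe set differed by 0.10 ± 0.09. Probe sets far below the median level gave 0.31 ± 0.11 for Idi1, 0.29 ± 0.10 for Elovl6 and 0.20 ± 0.09 for Scd1. The brightest probe sets used for Elovl5 and Fdft1 carry the same mark.

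**Figure D3:**
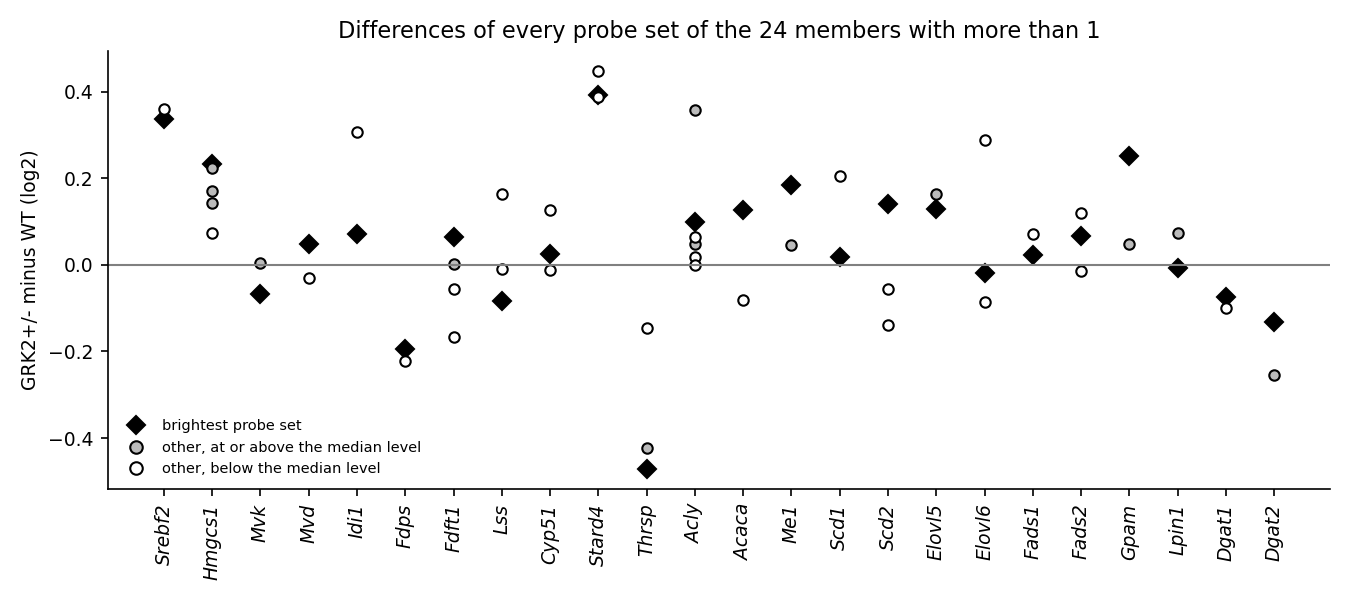
Difference between GRK2+/- and WT hearts (vertical axis, log2) for every probe set of the 24 genes that have more than 1, with diamonds for the brightest probe set, grey circles for others at or above the median level of the gene table and white circles for others below it. The probe sets of Srebf2, Stard4 and Hmgcs1 all lie above 0 and those of Thrsp and Fdps all below 0, while those of Gpam range from 0.05 to 0.25.

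Set side by side, the branches had medians of 0.072 (sterol, 15 genes), 0.088 (fatty acid, 12 genes) and -0.0082 (glycerolipid, 5 genes), against -0.019 for all genes. The medians of regulators and enzymes were 0.21 (4 genes, from -0.47 to 0.34) and 0.064 (27 genes, from -0.20 to 0.25). The regulator median stands for values of both signs, since Thrsp was lower and the other regulators higher. At an unadjusted p under 0.05 there were 3 of 4 regulators (75%) and 4 of 27 enzymes (14.8%), against 14.0% of all genes. Stard4, a carrier, was counted in neither. Among the enzymes the share was close to that of all genes. No test between the groups of members was made, since the members were chosen with earlier results known.

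The hearts of each group were not alike. The mean over the sterol branch, relative to the WT mean of each gene, was 0.02, 0.12 and 0.14 in GRK2+/- hearts 1 to 3, against -0.03, 0.04 and -0.01 in WT hearts. GRK2+/- heart 1 was within the WT range and the other two lay above it. For the fatty acid branch the means were 0.02, 0.07 and 0.06 in GRK2+/- hearts, against -0.002, 0.03 and -0.03 in WT hearts. Here too GRK2+/- heart 1 was inside the WT range. For the glycerolipid branch they were -0.02, 0.07 and -0.001 in GRK2+/- hearts, against 0.06, -0.10 and 0.03 in WT hearts, and the groups overlapped. For the regulators they were -0.05, 0.12 and 0.14 in GRK2+/- hearts, against -0.04, 0.07 and -0.03 in WT hearts. There GRK2+/- heart 1 was the lowest of all hearts. For the enzymes they were 0.02, 0.08 and 0.06 in GRK2+/- hearts, against -0.0003, 0.002 and -0.002 in WT hearts, without overlap. GRK2+/- heart 1 was the lowest of its group for 19 of 32 members (59.4%), against 41.8% of all genes. Without it the sterol median was 0.11.

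**Figure D4:**
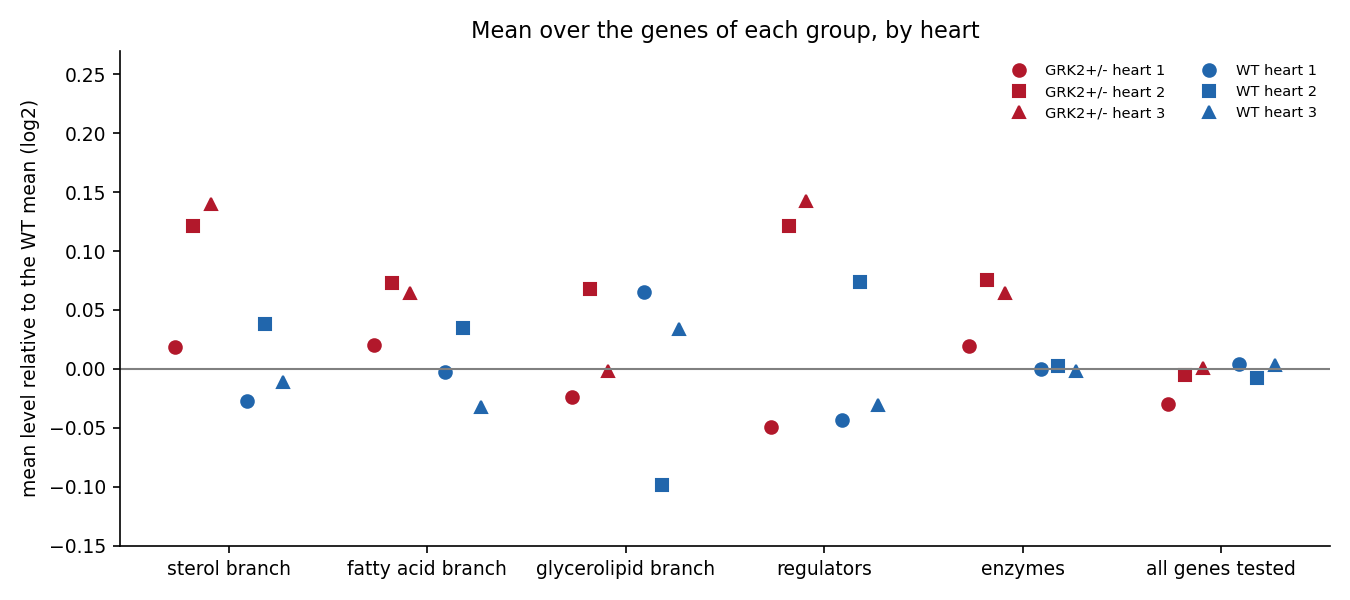
Mean level over the genes of each group relative to the WT mean (vertical axis, log2), for each GRK2+/- heart (red) and WT heart (blue). GRK2+/- hearts 2 and 3 lie at 0.12 and 0.14 for the sterol branch and heart 1 at 0.02, while all 6 hearts lie between -0.03 and 0.004 over all genes tested.

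The wider pathway, from lists of genes that are not members, included 67 measured genes, of which 11 were higher and 5 lower at an unadjusted p under 0.05 (23.9% in all, against 14.0% of all genes), and 0 were called after adjustment. Their median difference was -0.0076. Among 10 measured genes of SREBP processing and turnover, 2 were higher and 0 lower (20%, against 14.0% of all genes). Fbxw7, the ubiquitin ligase subunit that marks nuclear SREBPs for degradation, averaged 10.17 in GRK2+/- and 9.84 in WT hearts, a difference of 0.33 ± 0.07 without overlap. Mbtps1, the site-1 protease that cuts SREBPs, differed by 0.21 ± 0.08, with overlap. Of 7 other measured genes of the sterol pathway, 1 was higher and 1 lower (28.6%, against 14.0% of all genes). Ggps1, which diverts farnesyl diphosphate to protein prenylation, differed by 0.27 ± 0.10 and the sterol reductase Tm7sf2 by -0.28 ± 0.07.

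Of 16 further measured genes of fatty acid synthesis and activation, 3 were higher and 0 lower at an unadjusted p under 0.05 (18.8%, against 14.0% of all genes): Acacb, the mitochondrial acetyl-CoA carboxylase whose product inhibits fatty acid entry (0.20 ± 0.08), and the acyl-CoA synthetases Acsl3 (0.25 ± 0.10) and Acsl4 (0.32 ± 0.14). Of 24 genes of glycerolipid and phospholipid synthesis, 2 were higher and 3 lower (20.8%, against 14.0%). Their median difference was -0.043, with 17 below 0, and 9 did not overlap (37.5%, against 19.1% of all genes), 2 higher and 7 lower. The choline kinase Chka, which starts phosphatidylcholine synthesis, differed by -0.45 ± 0.10, the lipin Lpin3 by -0.31 ± 0.11 and the ethanolamine enzyme Pcyt2 by -0.18 ± 0.07. On the higher side were Gpat3, another glycerol-phosphate acyltransferase (0.33 ± 0.12), and the CDP-diacylglycerol synthase Cds2 (0.22 ± 0.07). Of 10 measured genes of sterol efflux and trafficking, 3 were higher and 1 lower (40%, against 14.0%). The cholesterol exporters had differences of opposite sign, 0.31 ± 0.11 for Abca1 and -0.19 ± 0.07 for Abcg1, and the lysosomal cholesterol transporter Npc1 and the cholesteryl ester hydrolase Nceh1 differed by 0.24 ± 0.10 and 0.16 ± 0.06.

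Markers of other cell types were read in the same hearts, as the log2 of their summed levels. Because lipid synthesis genes, Thrsp among them, are abundant in fat, adipocyte markers come first. Of 10 measured adipocyte markers 0 had an unadjusted p under 0.05, and their sum ran from 14.30 to 14.34 in GRK2+/- hearts and from 14.25 to 14.30 in WT hearts. The sums did not overlap, although the lowest in GRK2+/- hearts (14.300) was close to the highest in WT hearts (14.299). The sum is mostly Fabp4, the brightest of these markers (mean level 13.82), which differed by 0.09 ± 0.07. The mean over the markers overlapped between the groups, and 4 of the 10 lay below the 25th percentile of the gene table. Whether the sum tracks adipocytes in these hearts was not tested. Adipoq, which defines adipocytes, was below the 25th percentile of the gene table (5.76) in every heart, at 4.50, 4.56 and 4.39 in GRK2+/- hearts, against 4.48, 4.56 and 4.47 in WT hearts. Of 6 brown fat markers 2 were above 0 and 4 below, and 2 did not overlap (33.3%, against 19.1% of all genes). These were Prdm16, which was higher (0.40 ± 0.07), and Elovl3, which was lower (-0.14 ± 0.07). Ucp1 was at 5.49 to 5.62 in GRK2+/- and 5.52 to 5.81 in WT hearts. The sum, mostly Cidea (-0.03 ± 0.10), ran from 10.43 to 10.65 in GRK2+/- and from 10.40 to 10.59 in WT hearts. In level, 4 of the 6 lay below the 25th percentile of the gene table. Cardiomyocyte markers, which define the tissue, summed to 17.82 to 17.85 in GRK2+/- hearts and 17.81 to 17.83 in WT hearts. Their median difference was -0.0028, with 4 above 0 and 5 below, and Ryr2 was higher without overlap (0.35 ± 0.08). The mean over the 9, relative to the WT mean, did not overlap. It was 0.072, 0.046 and 0.024 in GRK2+/- hearts, against 0.020, 0.014 and -0.034 in WT hearts.

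For several other lists the sums of the groups did not overlap. Atrial markers summed to 10.65 to 11.26 in GRK2+/- and 11.44 to 11.93 in WT hearts, chiefly through Nppa (-1.20 ± 0.27), which also responds to cardiac stress. The median difference of the 6 atrial markers was 0.0087, with Myl4 (0.14 ± 0.07), Myl7 (0.11 ± 0.07, without overlap) and Sln (0.05 ± 0.09) above 0. Myl7 and Sln were dim, with mean levels of 5.56 and 5.68, under the 25th percentile of the gene table (5.76). Below 0, besides Nppa, were Bmp10 (-0.19 ± 0.08, with overlap) and Tbx5 (-0.04 ± 0.08). Endothelial markers summed to 11.97 to 12.10 in GRK2+/- and 11.70 to 11.95 in WT hearts. Of these 6 markers 5 were above 0, and 3 did not overlap (50%, against 19.1% of all genes). Kdr (0.55 ± 0.12) and Tek (0.23 ± 0.09) were higher without overlap. Pecam1, the 1 below 0, was lower in every GRK2+/- heart than in any WT heart (-0.12 ± 0.07). Markers of smooth muscle and pericytes summed to 14.00 to 14.20 in GRK2+/- and 13.86 to 13.99 in WT hearts. Of these 6 markers 5 were above 0, with Myh11 at 0.47 ± 0.09. In all, 3 did not overlap (50%, against 19.1% of all genes), each of them higher. Cnn1, the 1 below 0 (-0.13 ± 0.09), had a mean level of 5.72, under the 25th percentile of the gene table (5.76). The 4 measured neutrophil markers summed to 9.87 to 11.16 in GRK2+/- and 8.62 to 9.01 in WT hearts, chiefly through S100a8 and S100a9. Csf3r was also higher (0.33 ± 0.10, without overlap), so 3 of the 4 were above 0. Mpo was lower (-0.39 ± 0.10, without overlap), at a mean level of 5.51, under the 25th percentile of the gene table (5.76). The sums overlapped for fibroblasts (13.59 to 13.65 in GRK2+/- and 13.49 to 13.65 in WT hearts), macrophages (12.32 to 12.38 in GRK2+/- and 12.30 to 12.42 in WT hearts) and Schwann cells (8.57 to 8.68 in GRK2+/- and 8.48 to 8.64 in WT hearts). The fibroblast sum is mostly Dcn (-0.04 ± 0.08). The other 5 fibroblast markers were above 0, with Col1a1 at 0.30 ± 0.11, and the mean over the 6, relative to the WT mean, did not overlap, at 0.11, 0.22 and 0.19 in GRK2+/- hearts, against -0.02, 0.11 and -0.08 in WT hearts. Of the 7 macrophage markers, 4 did not overlap (57.1%, against 19.1% of all genes), 1 higher and 3 lower. The part of these cell types in the results for Srebf2, Srebf1, Thrsp and the other members was not tested.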

How the data were processed

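Expression was measured on 1 Affymetrix array per heart in 3 GRK2+/- and 3 WT hearts. The deposited log2 values come from the authors, who used RMA and limma per the submitters' processing notes. The sources used here give no versions and do not say if the arrays were normalised jointly. Such values are relative brightness, so the rank of a gene by level is used only to mark dim signal, sums over markers weigh bright probe sets most, and precision is limited by the number of arrays. From 45101 probe sets, 64 controls were left out; 34945 of the remaining 45037 had 1 symbol in the platform annotation, updated through the Entrez identifier in a RefSeq table (GRCm38.p6), and gave 18193 genes. The level of GRK2 itself was not analysed here, so the genotype labels were not checked by it. Genes were tested with limma (version 3.58.1, R version 4.3.3; lmFit, eBayes, two-sided) with Benjamini-Hochberg adjustment, a step tested on simulated data.

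The members, the lists and the tests were chosen with earlier results of these data known. Named genes were all members and, of each other pathway list, up to 5 genes with the smallest unadjusted p under 0.05. Alternatives were 2 scalings, a prior trend, array weights, 2 filters on dim genes, 2 probe set rules, each heart left out, and the heart number as a block. The main fit did not treat same-numbered hearts as pairs. Deviations of same-numbered hearts correlated at -0.18, -0.01 and 0.02, and those of other pairs at -0.16 to 0.16. With 3 hearts per group these values cannot tell if hearts shared a litter or batch.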

Additional observations from a re-analysis of the deposited data

How the results depend on the processing

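The count of members past an adjusted p of 0.05 was 0 in every alternative run. Over all genes that count was 0 as deposited, with 2546 genes at an unadjusted p under 0.05, and it was 42 with a variance prior that depends on level, 12 with array weights, 6 at or above the median level, 12 with the most variable probe set and 0 to 56 when hearts were left out in turn. With the replicate number as a block it was 1, and 8 members still had an unadjusted p under 0.05. The cause of these changes was not tested. The fit at or above the median level tested fewer genes and also estimated the variance prior anew. There 1553 genes had an unadjusted p under 0.05, against 1462 of those genes in the main fit. Members lower at an unadjusted p under 0.05 numbered 1, in place of 2, after centring, with array weights and with the most variable probe set. Centring gave medians of 0.099 for all members and 0.092 for the enzymes, and moved the median of all genes to 0.01. The most variable probe set gave medians of 0.11 for all members, 0.12 for the sterol branch and 0.15 for the fatty acid branch, and Elovl6 turned to 0.29.

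With hearts left out in turn, genes at an unadjusted p under 0.05 ranged from 1614 (without WT heart 3) to 3031, and members from 4 (without GRK2+/- heart 2) to 8, with 5 without WT heart 3. Of these members 3 (without GRK2+/- heart 2) to 7 were higher and 1 to 3 were lower, with 1 without GRK2+/- heart 1, GRK2+/- heart 2 or WT heart 3. Members without overlap ranged from 7 to 13, with 11 without GRK2+/- heart 1 and 13 without WT heart 2. Leaving out a heart can only keep or add members without overlap. The share of all genes without overlap was not computed for these fits, so nothing is read from these counts. Median differences ranged from 0.048 to 0.092 for all members, 0.058 to 0.11 for the sterol branch, 0.048 to 0.10 for the fatty acid branch, -0.066 to 0.018 for the glycerolipid branch, 0.15 to 0.28 for regulators and 0.028 to 0.084 for enzymes. The enzyme median was 0.028 without WT heart 2, and the fatty acid median 0.048 without WT heart 3. Genes near the bottom of the scale, such as Sqle, are limited by signal over background.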
